A study of Mus musculus with 7 samples.

Results

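The 8 liver-enriched transcription factor genes Hnf4a, Foxa1, Foxa2, Foxa3, Onecut1, Cebpa, Cebpb and Prox1 were examined in 3 lists of nuclease hotspots from mouse liver. Hotspots are called where cut ends pile up beyond the local background, and they were taken when they overlapped the gene body or the 20 kb on either side of it. The 8 genes are part of 22365 protein-coding genes on the chromosomes of the lists. Their windows held 91 of the 94491 accessible regions that resulted when hotspots of the 3 lists were joined wherever they overlapped by at least 1 bp. All samples came from livers of male C57BL/6 mice, 8 weeks old. Benzonase and Cyanase were each applied to frozen liver, pulverized before digestion, at 0.25, 1 and 4 U (3 samples per enzyme), and DNase I to fresh liver (1 sample in the labels, on purified nuclei by the study's methods). The study describes its DNase I tags as combined from replicates, which the labels do not list separately. Benzonase and Cyanase tolerate detergent and can digest tissue powder directly with no isolation of nuclei, a procedure named TACh. The tags of each nuclease were pooled before hotspots were called, which leaves 1 list per nuclease, no spread between replicates and no test. Nuclease, freezing and preparation differed together between TACh and DNase I and cannot be told apart.

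Hepatocyte identity rests on a small set of DNA-binding proteins that bind each other's genes and keep liver genes open and active. HNF4A is a nuclear receptor, FOXA1, FOXA2 and FOXA3 are forkhead proteins that can bind nucleosomal DNA, ONECUT1 (HNF6) carries a cut domain and a homeodomain, C/EBPα and C/EBPβ are leucine zipper proteins of metabolic and acute phase genes, and PROX1 is a homeodomain protein that also represses HNF4A targets. CpG islands, which are stretches rich in CG dinucleotides, cover the start sites of many such developmental genes.

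The lists held 60910 Benzonase, 57675 Cyanase and 72286 DNase I hotspots, without tag counts, so the depth behind a hotspot is unknown. The study reports fewer hotspots for each nuclease, so the counts and shares given here are not those of its published sets. Start sites of hepatocyte marker genes lay in hotspots of all 3 lists for 6 of 6 genes. Markers of other liver cells were marked unevenly between the lists. Start sites of 1, 1 and 4 of 5 Kupffer cell genes lay in Benzonase, Cyanase and DNase I hotspots, against 3, 3 and 1 of 5 genes of sinusoidal endothelium, 3, 4 and 0 of 4 of stellate cells and 2, 1 and 1 of 4 of bile duct. For lymphocyte and skeletal muscle genes the counts were 0, 0 and 1 of 3, and for neuronal genes 1, 1 and 1 of 3. Over all protein-coding genes the shares were 57.4%, 55.7% and 47.4% per list, and 46.1% with all 3 lists. Several of these small counts, such as those of bile duct with Benzonase and endothelium with Benzonase and Cyanase, were near such shares. The part of these cell types in the results below was not tested.

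Sequences from regions where the lists differed are shown first, all from mm9 and written 5′ to 3′ on the strand of the gene. At the Onecut1 and Cebpa start sites the Benzonase and Cyanase hotspots reached far beyond the DNase I hotspot. For each gene, 150 bases nearest the middle of the DNase I hotspot and 150 bases from the longest part covered by Benzonase and Cyanase only are given, with CG dinucleotides in capitals. The first Onecut1 stretch lies 183 to 34 bp upstream of the start site (chr9:74709545-74709694, plus strand), and the second is 742 to 891 bp downstream of it (chr9:74710470-74710619, plus strand, exonic). The Cebpa stretches lie 172 to 23 bp (chr7:35904140-35904289, plus strand) and 1061 to 912 bp (chr7:35903251-35903400, plus strand) upstream of the start site.
Onecut1 inside the DNase I hotspot: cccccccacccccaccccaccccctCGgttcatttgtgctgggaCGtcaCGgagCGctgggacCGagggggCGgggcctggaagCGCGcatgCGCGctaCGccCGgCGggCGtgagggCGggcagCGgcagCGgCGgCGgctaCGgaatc
Onecut1 covered by Benzonase and Cyanase only: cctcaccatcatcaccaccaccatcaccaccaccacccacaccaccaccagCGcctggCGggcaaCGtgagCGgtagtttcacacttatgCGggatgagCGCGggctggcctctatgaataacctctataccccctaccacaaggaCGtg
Cebpa inside the DNase I hotspot: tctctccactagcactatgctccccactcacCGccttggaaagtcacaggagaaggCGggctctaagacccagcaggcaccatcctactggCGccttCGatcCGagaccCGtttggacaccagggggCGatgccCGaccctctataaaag
Cebpa covered by Benzonase and Cyanase only: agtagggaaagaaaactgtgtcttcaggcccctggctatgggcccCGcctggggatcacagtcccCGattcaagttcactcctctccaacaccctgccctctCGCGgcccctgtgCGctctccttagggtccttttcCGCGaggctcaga

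The 4 stretches held 20, 8, 8 and 7 CG dinucleotides and had GC contents of 76.7%, 59.3%, 59.3% and 60.7%. These stretches do not stand for the whole regions. Over all bases of the region, GC content was 64.6% inside and 62.7% outside the DNase I hotspots at Onecut1, and 67.0% in both at Cebpa. The other Cebpa part covered by Benzonase and Cyanase only, of 645 bp, had 74.7%.

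Hnf4a has an upstream and a downstream promoter, and both differed from the other start sites in having no CpG island. The 150 bases ahead of each start site are shown with CG dinucleotides in capitals (chr2:163332394-163332543 and chr2:163372773-163372922, plus strand). They held 1 and 3 CG dinucleotides.
Hnf4a upstream promoter: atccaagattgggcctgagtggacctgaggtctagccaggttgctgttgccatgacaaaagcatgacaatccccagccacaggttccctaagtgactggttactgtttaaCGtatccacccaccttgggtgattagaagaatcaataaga
Hnf4a downstream promoter: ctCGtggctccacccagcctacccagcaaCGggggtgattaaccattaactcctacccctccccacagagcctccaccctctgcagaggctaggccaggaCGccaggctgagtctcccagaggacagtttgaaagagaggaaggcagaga

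Away from the start sites, regions found with DNase I alone and regions found without DNase I differed in base composition, and chosen examples are shown. The DNase I alone regions lowest in GC lay in introns of Prox1 and Foxa3. Their central 300 bases (chr1:191987393-191987692 and chr7:19603308-19603607, minus strand) are given with matches to short factor motifs in capitals, TGTTTAC (FOXA) and TTGCNNAA (C/EBP) for Prox1 and ATTGAT (ONECUT) for Foxa3, searched on both strands.
Prox1 intron, DNase I alone: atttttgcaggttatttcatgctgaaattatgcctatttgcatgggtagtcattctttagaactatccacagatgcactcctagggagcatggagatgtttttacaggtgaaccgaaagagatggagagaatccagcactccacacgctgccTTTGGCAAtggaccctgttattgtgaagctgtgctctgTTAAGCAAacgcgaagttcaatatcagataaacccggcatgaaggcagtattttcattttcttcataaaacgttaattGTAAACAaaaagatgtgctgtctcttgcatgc
Foxa3 intron, DNase I alone: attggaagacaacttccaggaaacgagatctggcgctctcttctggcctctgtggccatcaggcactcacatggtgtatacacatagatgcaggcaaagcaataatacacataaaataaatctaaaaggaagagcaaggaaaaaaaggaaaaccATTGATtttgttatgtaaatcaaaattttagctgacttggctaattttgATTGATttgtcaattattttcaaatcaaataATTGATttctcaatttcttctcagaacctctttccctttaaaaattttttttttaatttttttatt

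The region without DNase I that was highest in GC lay upstream of Onecut1, and the widest such region in an intron of Prox1. Their central 150 bases (chr9:74697113-74697262, plus strand, and chr1:191993058-191993207, minus strand) are given with CG dinucleotides in capitals, 15 at Onecut1 and 7 at Prox1.
Onecut1 upstream, without DNase I: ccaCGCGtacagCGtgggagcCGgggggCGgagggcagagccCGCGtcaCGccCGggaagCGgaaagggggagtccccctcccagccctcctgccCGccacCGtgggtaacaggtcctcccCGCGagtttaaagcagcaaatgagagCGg
Prox1 intron, without DNase I: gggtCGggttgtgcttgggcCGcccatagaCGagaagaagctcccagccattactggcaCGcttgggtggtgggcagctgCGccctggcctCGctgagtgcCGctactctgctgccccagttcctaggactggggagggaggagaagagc

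All 8 genes had a start site of a protein-coding transcript inside a hotspot of every list. Over all protein-coding genes this held for 57.4% with Benzonase, 55.7% with Cyanase, 47.4% with DNase I and 46.1% with all 3 lists. The windows of the 8 genes were also dense in accessible regions, with a median of 1.76 regions per 10 kb against 0.55 (quartiles 0.238 and 0.976) over all genes. Each of the 8 was above the median of all genes, from Cebpb, with more regions per 10 kb than 83.8% of genes, to Foxa3, with more than 99.6%. Hotspots covered a median of 16.2% of the window with Benzonase, 15.6% with Cyanase and 15.8% with DNase I, against 3.22%, 2.90% and 2.98% over all genes.

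**Figure D1:**
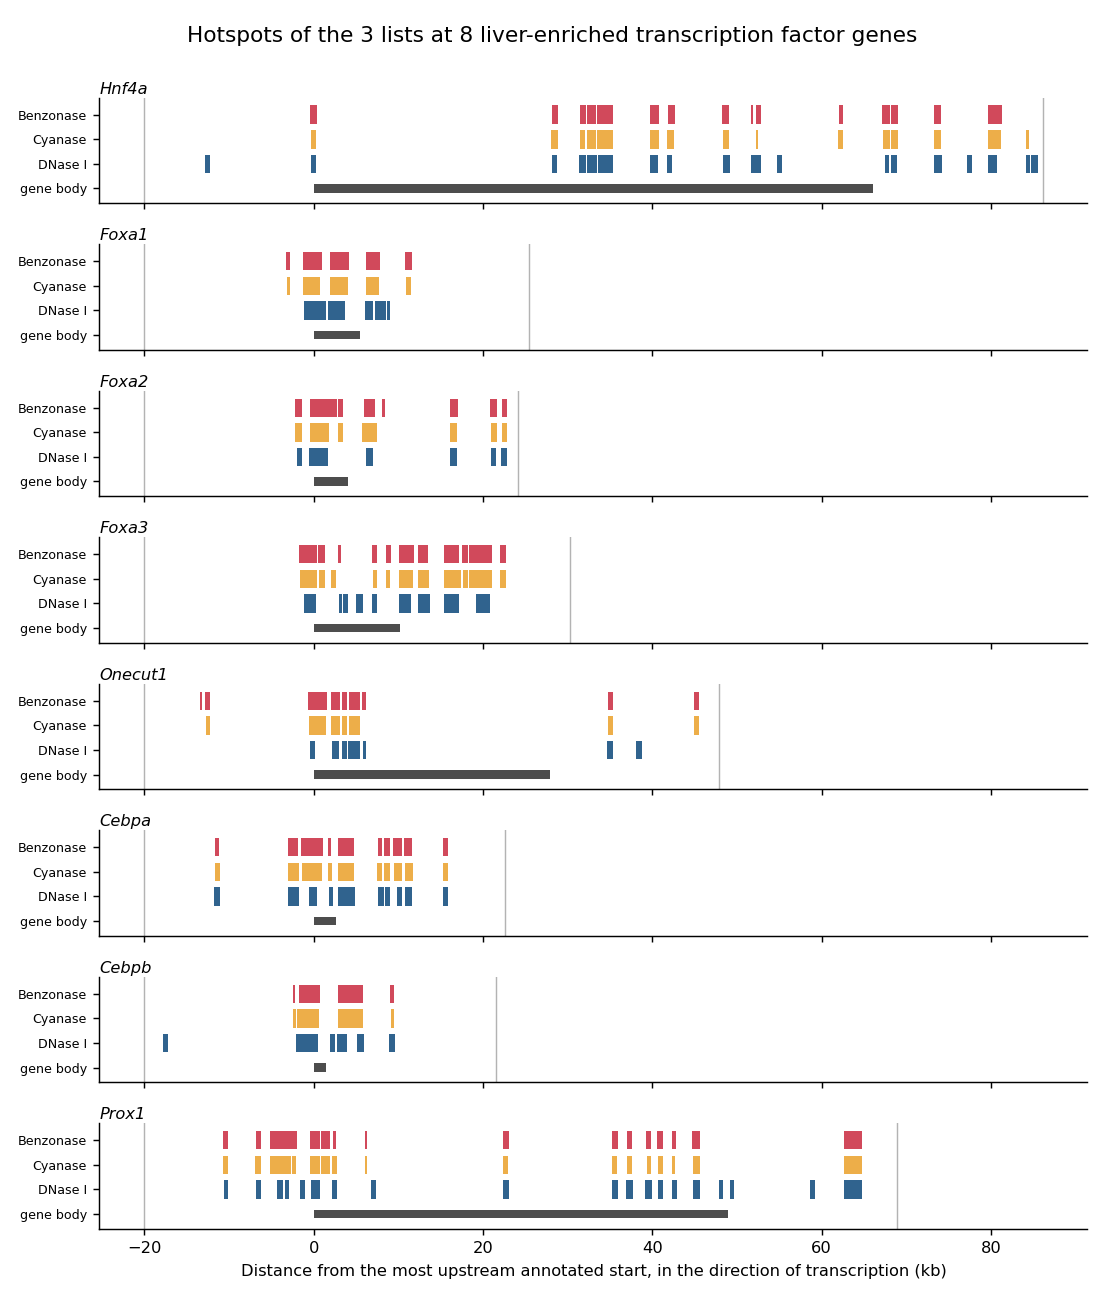
Hotspots of the 3 lists (coloured bars) in each gene's window, by distance in kb from the most upstream annotated start, with the gene body in dark grey and the window ends as grey lines. All 8 genes have hotspots of all 3 lists at a start site, and Hnf4a has a stretch of 27.7 kb without any hotspot between its promoters.

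Of the 91 regions, 58 held all 3 lists (63.7%, 95% Wilson interval 53.5 to 72.9, which covers counting error only), against 44.3% of regions in the windows of all protein-coding genes. Regions of DNase I alone numbered 15 (16.5%, 10.3 to 25.4) against 26.2%. Regions without DNase I also numbered 15 (16.5%), of which 12 held both Benzonase and Cyanase, against 24.1%. The remaining 3 regions held DNase I and 1 of the other 2 lists. The classes depended on what counts as joined. When hotspots had to overlap by 50% of both, DNase I alone and without DNase I rose to 26 of 108 regions each (24.1%). Regions with DNase I and another list then made up 51.9%, against 67.0% before. Shares over all genes were not computed under this rule.

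The classes were spread unequally over the genes. All 10 regions at Cebpa held all 3 lists, with 10 hotspots in each list. Cebpb had 5 regions, 2 of them DNase I alone and 0 without DNase I. Foxa2 had 8 regions, 0 DNase I alone and 2 without DNase I. Foxa3 had the most regions without DNase I, 5 of 14, beside 2 of DNase I alone. Onecut1 had 3 without DNase I and 1 of DNase I alone among 10, and Foxa1 had 2 and 1 among 6. Hnf4a and Prox1 had 4 of 18 and 5 of 20 regions of DNase I alone, near the 26.2% of all gene windows, and 1 and 2 without it. In hotspots, the counts for Benzonase, Cyanase and DNase I were 15, 15 and 18 at Hnf4a, 15, 16 and 20 at Prox1, and 12, 12 and 9 at Foxa3.

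**Figure D2:**
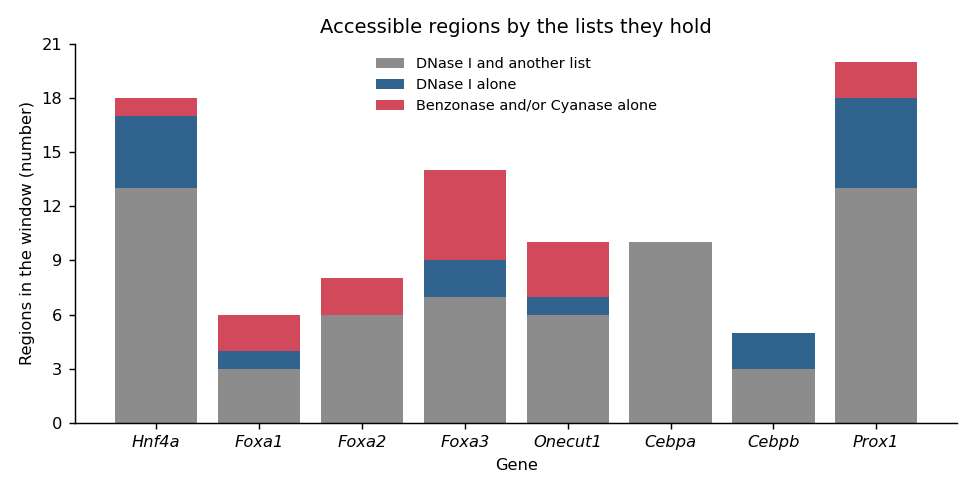
Number of regions in each gene's window, stacked by the lists they hold. Cebpa has 10 shared regions and no other, Foxa3 has 5 regions without DNase I, and Prox1 has 5 of DNase I alone.

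Hnf4a (ENSMUSG00000017950, chromosome 2, 163332544 to 163398646, plus strand) was open at both of its promoters in all lists. At the upstream promoter the hotspots were 736 bp with Benzonase, 692 bp with Cyanase and 616 bp with DNase I. At the downstream promoter, the main one in adult liver, they were 1114, 1060 and 939 bp. The regions had GC contents of 56.1% and 56.5%, and DNase I covered 0.837 and 0.843 of the Benzonase bases. The start site of another transcript, at 163362755, lay 1150 to 1211 bp from the nearest hotspot of each list, and that at 163375819 lay 631 to 975 bp away. The widest region away from promoters, 3163 bp in an intron with its centre 3.60 kb from the nearest start site (distances of regions are from their centre), was covered about equally, by 2991, 3069 and 2964 bp. Of the 4 regions of DNase I alone, GC content ranged from 42.7% to 50.4%, and the 1 region without DNase I, over an exon, had 53.3%.

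Among the forkhead genes, Foxa1 (ENSMUSG00000035451, chromosome 12, 58641618 to 58647108, minus strand) was the only one of the 8 whose start site region had more DNase I than Benzonase bases. The region held 2259 bp of Benzonase, 1996 bp of Cyanase and 2605 bp of DNase I hotspots. Here 479 bp, with a GC content of 40.3%, lay in DNase I hotspots only, in a region of 57.0% GC. Downstream of the gene, another region of all 3 lists held 782 bp of DNase I hotspots only, with a GC content of 33.4%. The region without DNase I 11.3 kb downstream of the start site had a GC content of 60.1%, the other without DNase I 54.9%, and the DNase I alone region 8.85 kb downstream had 42.4%. Over an exon lay the widest region away from promoters, covered by 2242, 2124 and 1935 bp.

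Foxa2 (ENSMUSG00000037025, chromosome 2, 147868613 to 147872705, minus strand) carried the widest hotspot of the 8 windows, 3267 bp of Benzonase over the start site, against 2333 bp of Cyanase and 2268 bp of DNase I. The DNase I hotspot reached 512 bp upstream and 1755 bp downstream of the start site, and the Benzonase hotspot 479 and 2787 bp. The difference therefore lay inside the gene. A region of 607 bp over an exon, with 63.1% GC and a CpG island, held Benzonase and Cyanase without DNase I. The other region without DNase I, of Benzonase alone, had 56.4% GC and also an island. Away from promoters, the widest region was covered by 1279 bp of Benzonase, 1780 bp of Cyanase and 835 bp of DNase I.

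Foxa3 (ENSMUSG00000040891, chromosome 7, 19598631 to 19608887, minus strand) shares its start site region with the neighbouring gene Sympk. Benzonase covered 2108 bp, Cyanase 2092 bp and DNase I 1455 bp of it. The DNase I alone region shown above (738 bp, 39.8% GC) lay 5.43 kb downstream of the start site, where the 5 kb flanks had 51.1% GC. At the far side of the window lay the gene Irf2bp1, whose exon held a region without DNase I of 687 bp and 65.1% GC, the highest of the 5 in this window, while the lowest had 54.1%. The other region of DNase I alone had 50.4% GC. Away from promoters, the widest region, also over an exon of Irf2bp1, was covered by 1761, 2050 and 1782 bp.

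Onecut1 (ENSMUSG00000043013, chromosome 9, 74709728 to 74737591, plus strand) had the lowest ratio of DNase I to Benzonase bases among the start site regions. Its start site lay in hotspots of 2221 bp with Benzonase, 2014 bp with Cyanase and 644 bp with DNase I, so that DNase I covered 0.290 of the Benzonase bases. DNase I reached 213 bp downstream of the start site, Cyanase 1419 bp and Benzonase 1592 bp. The region without DNase I shown above lay 12.5 kb upstream (530 bp, 65.1% GC, CpG island), where the flanks had 47.8% GC. Inside the gene and beyond its end, no list had a hotspot for 28.5 kb (74715958 to 74744422). The widest region away from promoters, in an intron, was covered by 1374 bp of Benzonase, 1334 bp of Cyanase and 1434 bp of DNase I. The 1 region of DNase I alone lay 38.4 kb downstream of the start site with 46.4% GC, and the region without DNase I lowest in GC had 52.3%.

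Cebpa (ENSMUSG00000034957, chromosome 7, 35904312 to 35906945, plus strand) came next. Its hotspots over the start site measured 2582 bp with Benzonase, 2423 bp with Cyanase and 975 bp with DNase I (0.378 of the Benzonase bases), in a region of 67.0% GC. The DNase I hotspot reached 584 bp upstream and 390 bp downstream, against 1518 and 1063 bp with Benzonase. The widest region away from promoters was covered by 1908, 1910 and 1969 bp. At Cebpb (ENSMUSG00000056501, chromosome 2, 167514415 to 167515918, plus strand), the start site region was also rich in GC, 65.6%, and nearly equally covered, by 2779, 3056 and 2623 bp. A region downstream of Cebpb, the widest of its window away from promoters, was covered by 3028, 3036 and 1986 bp, and the 2 regions of DNase I alone had 53.2% and 54.8% GC.

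Prox1 (ENSMUSG00000010175, chromosome 1, 191945660 to 191994559, minus strand) had 20 regions. Its start site region was covered by 1174 bp of Benzonase, 1225 bp of Cyanase and 1092 bp of DNase I, the last as 2 hotspots of which the one over the start site was 518 bp wide. A region of 3230 bp further upstream, with a CpG island, was covered by 3230, 3051 and 1334 bp. The region of 1124 bp without DNase I shown above lay 1.43 kb downstream of the start site and had 59.6% GC. The other region without DNase I had 49.5% GC. The 5 regions of DNase I alone ranged from 38.3%, in the intron 7.02 kb downstream and the lowest of the 91, to 47.9%, at the promoter. The widest region away from promoters, 63.7 kb downstream of the start site, was covered almost equally, by 2153, 2122 and 2170 bp.

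**Figure D3:**
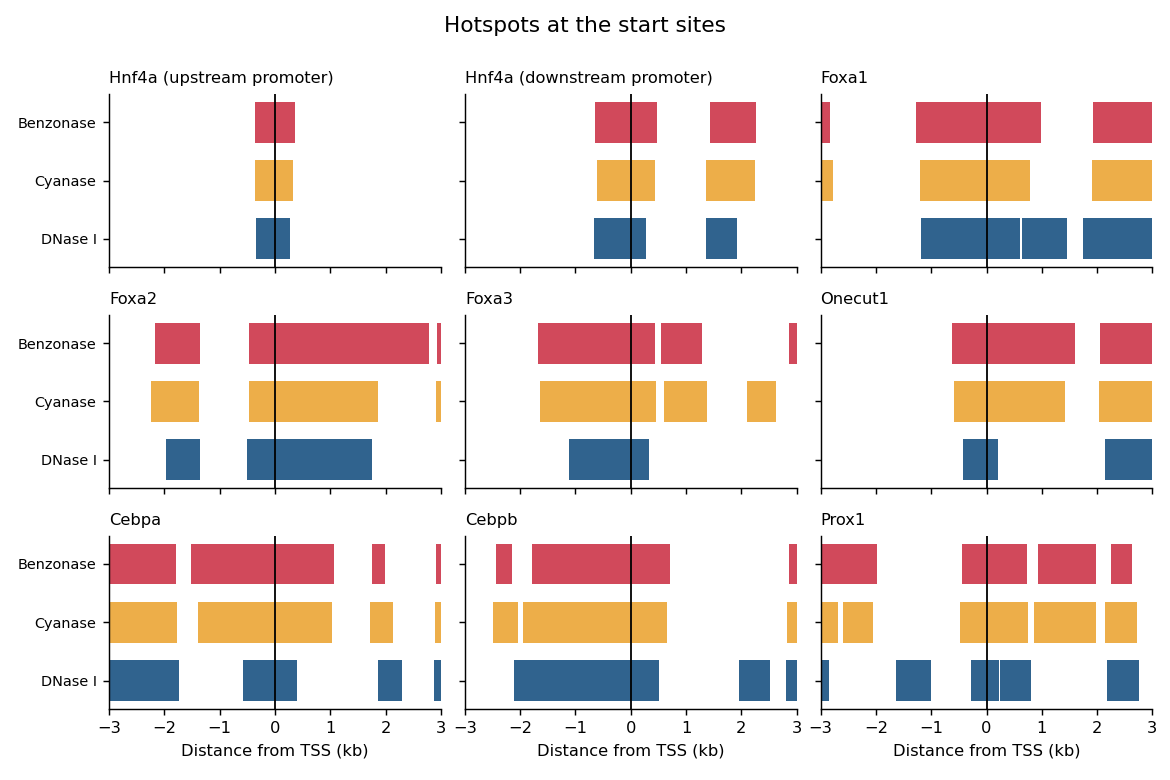
Hotspots within 3 kb of each start site (black line), by distance in kb in the direction of transcription. DNase I hotspots are 644 bp wide at Onecut1 and 975 bp at Cebpa, and about as wide as the others at Cebpb and both Hnf4a promoters. At Prox1 the DNase I hotspot over the start site is 518 bp wide, with a second one directly beside it. Together they cover 1092 bp, against 1174 bp with Benzonase.

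Islands of CG dinucleotides lay at 7 of the 9 start site regions of the 8 genes, all but those of Hnf4a. Over all start site regions of all 3 lists, 8259 of 10215 had an island (80.9%), a share near that of the 8 genes. With the Irf2bp1 start site in the Foxa3 window, 8 regions of all 3 lists lay at a start site with an island, and in 7 of them DNase I covered fewer bases than Benzonase. Over all such regions of the lists, 89.1% did. The median ratio of DNase I to Benzonase bases was 0.692 in the 8 regions and 0.719 over all. Away from promoters DNase I covered fewer bases in 21 of 43 regions of all 3 lists, where the median ratio was 1.01, against 42.6% of regions and a median of 1.04 over the lists. Both shares were near the background.

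**Figure D4:**
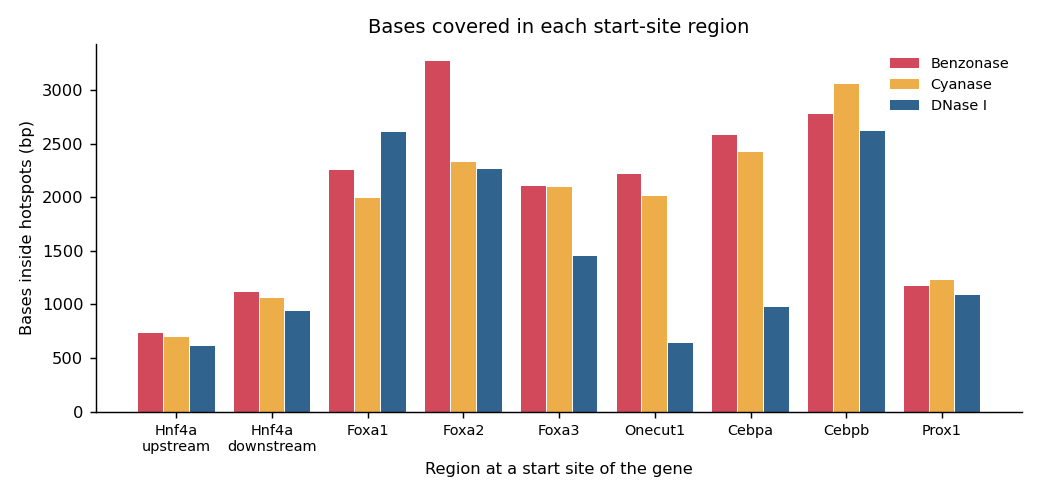
Bases inside hotspots of each list (bars, in bp from 0) in the 9 regions at a start site of the 8 genes. DNase I covers 644 bp at Onecut1 and 975 bp at Cebpa, where Benzonase covers 2221 and 2582 bp.

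Bases inside and outside the DNase I hotspots were then compared. In the 7 regions at members' start sites with an island, the GC content of bases in Benzonase or Cyanase hotspots only minus that of bases in DNase I hotspots ran from -8.47 percentage points at Foxa3 to 4.49 at Foxa2. The median difference was 0.97, and 5 of 7 were above 0. Over 7427 such regions the median difference was -4.22, and 30.9% were above 0. Over all 58 regions of 3 lists, stretches of at least 100 bp in both Benzonase and Cyanase hotspots but not in DNase I hotspots numbered 32, with a median GC content of 57.3%. Stretches of DNase I only numbered 13, with a median of 45.1%. Most of the Benzonase and Cyanase stretches lay in promoter regions, and most of the DNase I stretches lay elsewhere. Position and nuclease were thus not separated in these medians. Such stretches were not drawn over all regions of the lists, so no background stands beside them.

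By class, the base composition of the regions also differed. Away from promoters, GC content had a median of 46.8% in 14 regions of DNase I alone (38.3 to 54.8%), 50.2% in 46 shared regions (40.1 to 58.4%) and 58.0% in 14 regions without DNase I (49.5 to 65.1%). The ranges overlapped between 49.5% and 54.8%. The same order held over all regions of the lists, at 42.2%, 47.0% and 53.5%, each lower than at the 8 genes. All 14 regions without DNase I were richer in GC than their 5 kb flanks, as were 7 of the 14 of DNase I alone. Over all regions away from promoters, 95.4% of those without DNase I and 45.2% of those of DNase I alone were richer than their flanks, so both counts were near the background. Islands lay at 6 of the 15 regions without DNase I (40%) and at 0 of the 15 of DNase I alone, where a count of 0 allows a share of up to 20%. Over the lists, islands lay at 13.5% of regions without DNase I and 0.131% of those of DNase I alone. In the windows of all protein-coding genes the shares were 18.4% and 0.151%. Under a stricter definition of islands the counts at the 8 genes were 4 and 0, with no background computed. The 15 regions without DNase I had a median width of 607 bp, against 453 bp over the lists and 482 bp in all gene windows. The part of width in these shares was not tested. At promoters, 15 shared regions had a median of 57.4% against 56.4% over all. DNase I alone and without DNase I held only 1 promoter region each. Under the overlap of 50% of both, the DNase I alone promoter value turned from 47.9% to 65.2%. That rule also counts as DNase I alone the DNase I hotspots at the Onecut1 and Cebpa start sites, with 64.6% and 67.0% GC. These lie wholly inside wider Benzonase and Cyanase hotspots, so the value does not describe regions that only DNase I found.

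**Figure D5:**
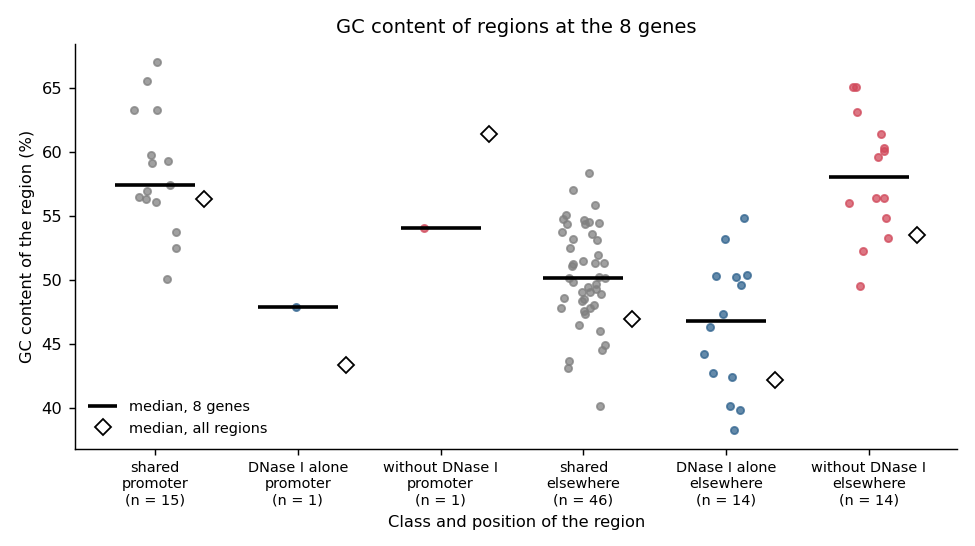
GC content (%) of each of the 91 regions (points), by class and position, with the median of the 8 genes (black line) and of all regions (diamond). Away from promoters the medians are 50.2% for shared regions, 46.8% for DNase I alone and 58.0% without DNase I.

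The edges of Benzonase and Cyanase hotspots lay closest to each other. In the 58 regions of all 3 lists, a median of 93.1% of the bases in either list lay in both for Benzonase and Cyanase, 81.9% for Benzonase and DNase I and 80.7% for Cyanase and DNase I. Benzonase and Cyanase were the closest pair in 43 of the 58 regions and in 14 of 15 at promoters. Over all regions held by all 3 lists the pair was closest in 68.0%, and in 82.8% at promoters, with medians of 90.6%, 78.9% and 78.8% in the same order of pairs.

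Short matches to the factors' own motifs were counted in the 91 regions and over the lists. In the central 300 bases, TGTTTAC (FOXA) was found in 9 regions (9.89%, against 6.60% of all regions), TTGCNNAA (C/EBP) in 16 (17.6%, against 17.2%), ATTGAT (ONECUT) in 12 (13.2%, against 13.9%) and GGGCGG (GC box) in 19 (20.9%, against 15.8%). CAAAGTCC (HNF4) was found in 0 of 91, which allows up to 3.30%, against 3.14% of all regions. C/EBP letters lay in 4 of 15 regions of DNase I alone and 0 of 15 without DNase I, against 24.9% and 7.96% over the lists. ONECUT letters lay in 3 and 1, against 24.2% and 6.31%. FOXA letters lay in 1 region of each class, against 9.60% and 2.99%. The 1 of DNase I alone was the Prox1 intron shown above. The GC box lay in 2 and 3, against 2.90% and 19.8%. A match is a description of the letters and not a binding site.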

How the data were processed

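TACh and DNase I digests of mouse liver were sequenced and aligned to mm9 by the authors with Eland or Bowtie. After pooling all tags per nuclease, the authors identified hotspots with the false discovery rate set to 0% and the mode of the tag density as threshold. The deposited lists, headed input adjusted and unmerged, give a chromosome with a start and an end. They hold no count or density, and depth per hotspot is unknown. For each nuclease the list holds more hotspots than the study reports. The lists are therefore not the published hotspot sets, and whether the same settings gave them is unknown. There were 0 columns of other samples.

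Genes, start sites and positions were taken from GENCODE release M1 on mm9 (NCBIM37), and printed coordinates count from 1. Hotspots of the lists were joined by overlaps of at least 1 bp. A region was assigned to a promoter when it overlapped the 2 kb upstream of a protein-coding start site or the site itself. Flanks were 5 kb on either side. CpG islands exceeded 50% GC and a ratio of 0.6 of observed to expected CpG over 200 bp or more, from sequence not masked for repeats. The genes, lists and regions named follow a rule (all 8 members, their start site regions, their widest shared region and their extremes in GC), and members and lists were chosen with earlier results of these data known. The stretches chosen for printing, the parts of regions covered by 1 nuclease and the edge comparison were picked after values were seen. No test was made, since each nuclease gave 1 pooled list. The Wilson intervals are at 95%. Alternatives were windows of 5 and 50 kb, narrow hotspots left out, joining within 150 bp, overlap of 50% of both, other transcripts or distances for start sites, the central 150 bp, promoters of 1 kb on either side and stricter islands. Leaving out promoters of neighbouring genes was added after the data were seen. Joining, islands and motif search were tested on simulated data. Python 3.11.15, numpy 2.4.6, scipy 1.17.1, numba 0.67.0 and matplotlib 3.10.9 were used. Tags of single concentrations were not analysed here. A withheld item is not reported here.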

Additional observations from a re-analysis of the deposited data

How the results depend on the processing

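Of 70 values under alternatives for 21 results, 50 stayed and 20 moved. A count stayed when it was within 1.5 times. A GC content or covered share stayed when it was within the 95% Wilson half-width of the pooled bases. That half-width takes each base as a separate trial and does not measure the spread between regions. The tally for these values therefore depends on the number of bases and is not a measure of stability. Windows of 50 kb held 94 shared regions. Windows of 5 kb held 9 regions of DNase I alone and 9 without DNase I. Such counts must change with the size of the window, but the shares changed little. Shared regions made up 67.0% in the main windows, 70.5% at 5 kb and 69.1% at 50 kb. For DNase I alone the shares were 16.5%, 14.8% and 16.2%, and without DNase I 16.5%, 14.8% and 14.7%. The rule of joining moved the shares more. An overlap of 50% of both gave 26 regions of DNase I alone and 26 without DNase I among 108 (24.1% each), and 51.9% shared. For shared promoters the median GC content was 58.7% in the central 150 bp, 59.3% with promoters of 1 kb on either side and 56.5% with an overlap of 50% of both, and for shared regions elsewhere it was 51.7% in the central 150 bp. With an overlap of 50% of both, GC content was 65.2% at promoters and 49.9% elsewhere for DNase I alone, and 61.5% and 56.4% without DNase I. DNase I alone then included DNase I hotspots that lay inside wider hotspots of the other lists. With promoters of 1 kb on either side it was 56.4% elsewhere without DNase I. Windows of 5 kb were covered to 24.1% by Benzonase, 23.0% by Cyanase and 21.0% by DNase I, and windows of 50 kb to 11.4%, 11.0% and 10.7%. For start sites, counting all annotated transcripts or hotspots within 1 kb can only keep or add marks. The count of 8 genes per list therefore had to stay under these alternatives, and such values are among the 50. Leaving out narrow hotspots could lower the count, and left 8 genes with Benzonase, 8 with Cyanase and 7 with DNase I, without Prox1. Its start site region held DNase I as 2 adjacent hotspots, and the one over the start site was only 518 bp wide. No paired analysis was possible because each nuclease gave 1 pooled list.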

Other observations

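Genes related to the 8 factors were not all marked. Of 7 listed paralogues 6 were analysed, and Hnf4g, Onecut2 and Cebpg had a start site in hotspots of all 3 lists, whereas Onecut3, Cebpe and Prox2 had it in none. Marking by all 3 lists thus held for 3 of 6, near the 46.1% of all protein-coding genes. Cebpd was not analysed here. Onecut2 had 13 regions in its window, 11 of them shared, and Hnf4g had 1. Of 27 other liver factors, 25 had a start site in all 3 lists and Hhex and Creb3l3 in none, although each of their windows held 6 regions. Srebf1, Klf15 and Xbp1 had the most regions per 10 kb, at 2.52, 2.28 and 2.21. Of 19 factors of other tissues, 5 had a start site in Benzonase, 4 in Cyanase and 1 in DNase I hotspots, and Pax6 was marked by all 3 lists. Over all protein-coding genes the shares per list were 57.4%, 55.7% and 47.4%. The median number of regions per 10 kb was 1.31 for the other liver factors, 0.66 for the paralogues and 0.48 for the factors of other tissues. These lists were chosen with earlier results of these data known, and the differences between them were not tested.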
